A study of Mus musculus with 7 samples.

Results

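The mRNAs of 50 genes for proteoglycans, hyaluronan synthesis and heparan or chondroitin sulfate enzymes were measured in 7 RNA-Seq libraries of sorted cells of the embryonic mouse neocortex. The genes were chosen by function, with earlier results of these data known, as the rows of a table of 38124 genes whose Ensembl identifiers map to a listed symbol, and all 50 were found. They comprise 29 core and link proteins (lecticans, basement membrane heparan sulfate proteoglycans, glypicans, syndecans, small leucine-rich proteoglycans, link proteins, neuroglycan C and testicans) and 21 enzymes.

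Proteoglycans are secreted or membrane-bound core proteins that carry long, negatively charged glycosaminoglycan chains of the heparan sulfate or chondroitin sulfate type. Xylosyltransferases start the chains on serine residues, polymerases extend them, and sulfotransferases modify them at several positions, which sets the growth factors, morphogens and receptors that a chain can bind. In brain matrix the lecticans bind hyaluronan, a glycosaminoglycan that has no core protein and is extruded by synthases of the plasma membrane, and link proteins stabilize that complex.

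The libraries came from High RFP cells, sorted for the brightest RFP signal, of neocortex electroporated in utero at E13.5 and collected at E15.5, 48 hr later. The control group (3 libraries, replicates 1, 2 and 4) received the control construct and the Sox9 group (4 libraries, replicates 1 to 4) the conditional Sox9 expression construct. In both groups the embryos were heterozygous for Tis21-CreERT2, an allele in which a CreERT2 cassette replaces part of Tis21, the mothers had been given tamoxifen, and Cre, made in BP-genic aRG and in the BPs they produce, switched either construct to nuclear RFP expression. According to the methods, the cortices of several embryos and mothers were pooled for each sort, so a library is a pool and not an animal, and p-values measure the spread between such pools.

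The sequences upstream of the 3 genes that passed the test, Vcan, Hspg2 and Acan, and of Ncan, the most abundant gene of the set, are shown because these genes carry the main results. Each is the stretch of 250 bases before the RefSeq start of the gene on GRCm38.p6, written 5′ to 3′ on the gene's strand, with every CpG dinucleotide in capitals. The windows lie at chr13:89742513-89742762 on the reverse strand (Vcan), chr4:137468553-137468802 on the forward strand (Hspg2), chr7:79052976-79053225 on the forward strand (Acan) and chr8:70120845-70121094 on the reverse strand (Ncan). GENCODE, the annotation used for the counts here, places some starts elsewhere.
Vcan: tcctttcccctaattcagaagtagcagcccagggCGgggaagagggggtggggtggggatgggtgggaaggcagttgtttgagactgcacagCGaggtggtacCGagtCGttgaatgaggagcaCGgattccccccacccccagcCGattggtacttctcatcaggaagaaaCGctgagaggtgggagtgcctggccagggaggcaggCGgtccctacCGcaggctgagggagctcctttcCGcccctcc
Hspg2: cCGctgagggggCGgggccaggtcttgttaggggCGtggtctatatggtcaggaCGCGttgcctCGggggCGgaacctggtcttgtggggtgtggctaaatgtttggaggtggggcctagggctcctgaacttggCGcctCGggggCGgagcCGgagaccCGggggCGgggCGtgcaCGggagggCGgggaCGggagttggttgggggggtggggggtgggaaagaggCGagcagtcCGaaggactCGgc
Acan: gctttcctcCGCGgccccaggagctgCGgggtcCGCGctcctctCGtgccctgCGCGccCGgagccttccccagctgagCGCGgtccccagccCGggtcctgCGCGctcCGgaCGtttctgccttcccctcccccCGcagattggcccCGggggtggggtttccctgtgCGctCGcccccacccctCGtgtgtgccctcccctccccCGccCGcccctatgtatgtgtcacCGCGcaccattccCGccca
Ncan: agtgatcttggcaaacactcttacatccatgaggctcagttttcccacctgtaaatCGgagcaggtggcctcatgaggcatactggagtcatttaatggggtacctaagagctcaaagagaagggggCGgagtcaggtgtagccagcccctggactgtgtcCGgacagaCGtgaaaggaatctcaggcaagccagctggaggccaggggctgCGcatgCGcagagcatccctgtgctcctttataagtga
The Vcan window was 62.4% G or C with 10 CpG, that of Hspg2 70% with 20, that of Acan 74.4% with 26 and that of Ncan 54.4% with 6. RefSeq held windows for 34 of the 50 genes (39 windows), with a median of 62.0% G or C and 12 CpG, beside 52.4% and 6 over all 32851 windows. The letters ACAAT and ACAAAG, core motifs of the SOX family, were searched on both strands, and neither occurred in the 4 windows shown. A match to either motif was found in 20.5% of the members' windows (8 of 39) and in 38.8% of all windows, counts that describe letters in a window and not binding.

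Counts on genes ran from 4429704 to 12907778 per library, where the median was 11592511 for the control group and 7428919 for the Sox9 group, and 3 counts corresponded to 0.261 to 0.629 CPM (counts per 1000000 counts of the TMM-scaled library). Sox9 itself, the gene of the construct, was checked first. Control libraries held 362, 1026 and 668 counts of it and the Sox9-labelled libraries held 370, 435, 277 and 177, a log2 fold change of -0.68 ± 0.25 (standard error) with an adjusted p of 0.0493, so its mRNA was not higher in the group named for it and every direction below refers to the labels. Eomes (Tbr2), the transcription factor of intermediate progenitors, was called lower in the Sox9 group, with 25.2, 42.9 and 44.5 CPM in the controls and 9.75, 6.14, 8.61 and 6.92 CPM in the others (-2.25 ± 0.23, adjusted p = 4.87e-05). Markers of radial glia, intermediate progenitors and neurons were present in every library, those of neurons with by far the highest sum. Those of radial glia summed to 551 to 1071 CPM in the control group and 263 to 403 CPM in the Sox9 group, those of intermediate progenitors to 213 to 245 and 127 to 156 CPM, and those of neurons to 13103 to 16167 and 11810 to 13911 CPM. Each gene was tested by quasi-likelihood in edgeR on TMM-scaled counts, with p-values adjusted over the 16522 genes that passed the filter on low counts, and a gene was called at an adjusted p under 0.01. Among the 14267 protein-coding genes tested, 9.96% were called higher in the Sox9 group and 3.88% were called lower. The calls depended on the level of the gene. Below an average log2 CPM of 2, 23.7% of genes were called higher and 0.407% lower, between 2 and 5 these shares were 8.55% and 3.52%, and from 5 upwards they were 0.676% and 6.96%.

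Vcan (versican) and Hspg2 (perlecan), both large secreted core proteins, were higher in the Sox9-labelled libraries. Of the 17 enzymes tested, edgeR called none in either direction, where 9.96% of all protein-coding genes were called higher and 3.88% lower. The core protein Acan (aggrecan), was also called higher, but it entered the test only through the libraries in which it was high. Of the 50 genes, 41 passed the filter on low counts, and 3 of the 41 were called higher and 0 lower, beside 9.96% and 3.88% of all genes. The filter asked for about 10 counts in at least 3 libraries, and 2 of the 41, Acan and Hapln2, met it in Sox9-labelled libraries alone, as did 1410 of the 14267 protein-coding genes, whereas 7 of those met it in control libraries alone. Such a gene could hardly be called in the other direction. At an unadjusted p under 0.05, edgeR gave 10 of the 41 higher and 6 lower, beside 23% and 19.4% of all protein-coding genes. At an adjusted p under 0.01 DESeq2 called 3 members lower (Gpc1, Sdc2 and the enzyme Ndst3), where it called 9.22% of all protein-coding genes lower. The median log2 fold change was -0.05 over the 41 genes and -0.06 over all protein-coding genes tested. It was -0.11 over the 24 core and link proteins tested and 0.17 over the 17 enzymes. Every Sox9 library lay above every control library for 9 of the 41 genes and below for 5, where this held for 19.8% and 18.4% of all genes. The 9 genes not tested were Bcan, Lum, Fmod, Hapln1, Hapln4, Has1, Has2, Has3 and Hs6st3.

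**Figure D1:**
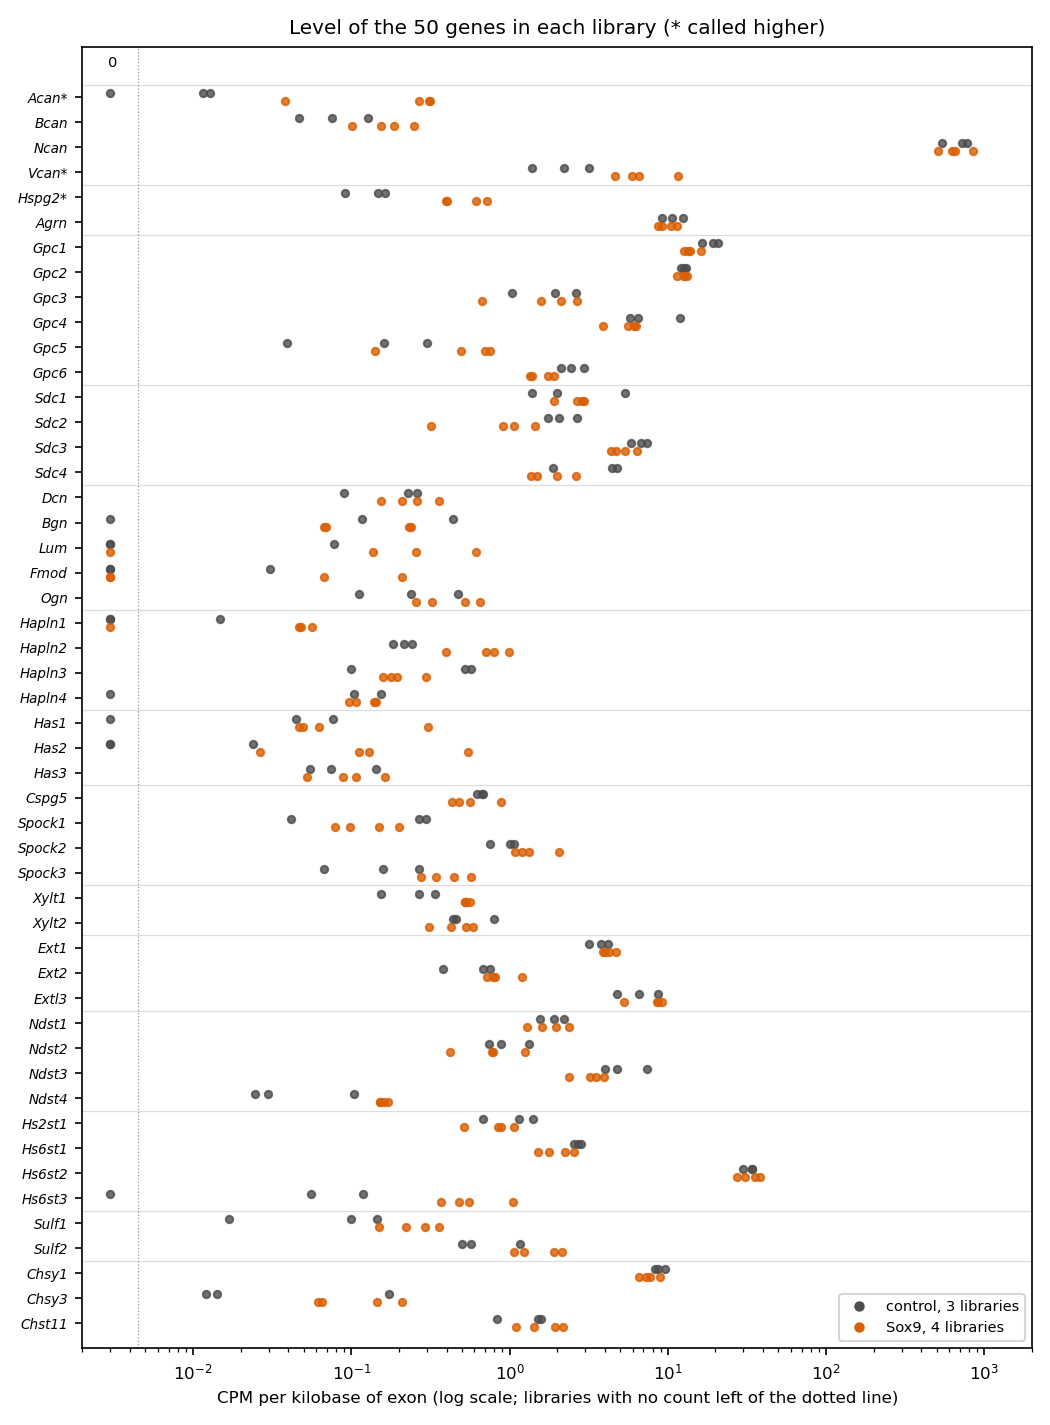
The horizontal axis gives CPM per kilobase of exon on a log scale for each of the 50 genes, ordered by role, with 3 control libraries (grey) and 4 libraries labelled Sox9 (orange), and libraries without a count left of the dotted line. Ncan stands apart at the right in every library, and the points of the 2 groups are separate for Vcan, Hspg2 and Acan but overlap for most other genes.

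Per kilobase of exon, the set was dominated by Ncan, which held rank 30 among all protein-coding genes. Its mean level was 681 ± 127 RPKM (SD, n = 3) in the controls and 658 ± 139 (n = 4) in those labelled Sox9, where RPKM stands for CPM per kilobase of exon. Next came Hs6st2 with 32.8 RPKM over all 7 libraries, Gpc1 with 16.1, Gpc2 with 12.5, Agrn with 10.3, Chsy1 with 8.17, Extl3 with 7.38 and Gpc4 with 6.58. Ncan took 80.5 to 86.7% of the reads counted on the 50 genes and 0.363 to 0.612% of all reads. The other 49 genes summed to 899 ± 32.6 CPM in the controls and 918 ± 19.4 in the Sox9-labelled libraries, ranges of 874 to 936 and 893 to 935 that overlapped.

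The genes were spread over all levels, and the change of each level class of the transcriptome is given beside theirs. The 13 genes below an average log2 CPM of 2 had a median log2 fold change of 0.79, beside 1.35 for all genes of that class. Of the 13, 1 was called (Acan), where 23.7% of all genes in this class were called higher. The 17 genes between 2 and 5 had -0.16 beside -0.03, with 1 called (Hspg2), where 8.55% of all genes in this class were called higher. The 11 genes from 5 upwards had -0.05 beside -0.24, with 1 called (Vcan), where 0.676% of all genes in this class were called higher. Of the 13 low genes 9 lay above 0, beside 83.6% of all genes in that class, and the rise of Vcan stood in the class where calls of that direction were rarest.

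**Figure D2:**
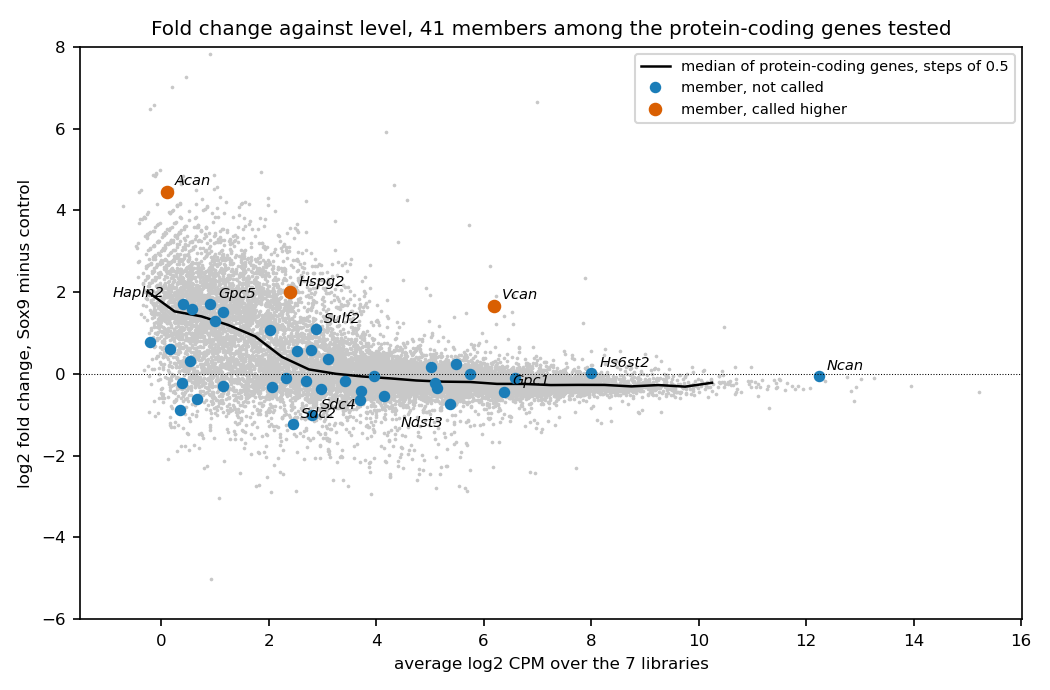
Each point is a gene, with its average log2 CPM over the 7 libraries on the horizontal axis and its log2 fold change (libraries labelled Sox9 minus control) on the vertical axis, for all 14267 protein-coding genes tested (grey), the 38 members not called (blue) and the 3 called higher (orange). The black line, the median of the grey points, falls from above 1 at low levels to below 0 at high levels, and Vcan and Hspg2 lie above it at medium and high levels.

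The lecticans, the hyaluronan-binding chondroitin sulfate proteoglycans of cartilage and brain, comprise Vcan, Acan, Ncan and Bcan. Vcan (ENSMUSG00000021614, chromosome 13 of GRCm38 from 89655312 to 89742509) had 45.7, 31.9 and 19.9 CPM in the controls and 167, 94.4, 67.2 and 85.6 CPM in those labelled Sox9. The lowest of the latter was above the highest control. The means were 32.5 ± 12.9 CPM (SD, n = 3) and 104 ± 43.9 CPM (n = 4), the log2 fold change was 1.67 ± 0.30 (standard error), and the adjusted p from edgeR was 0.0014. Leaving out any single library kept the call, with log2 fold changes of 1.36 to 1.98.

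Acan, the main proteoglycan of cartilage and a component of perineuronal nets, was close to absent in the control libraries. It had 1, 1 and 0 counts there and 17, 3, 18 and 11 in the Sox9-labelled libraries, of which replicate 2 was far below the others at 0.283 CPM against 2.01 to 2.34. The ratio of the summed rates was 24.7, with a 95% exact counting interval of 6.48 to 209 that covers counting error only, and edgeR gave an adjusted p of 0.00336, which is conditioned on the filter, since no control library reached the minimum count. Acan lies on chromosome 7 from 79053483 to 79115099 (ENSMUSG00000030607). It lost the call without control replicate 1 (adjusted p of 0.0106), 2 (0.0128) or 4 (0.0132), kept it without Sox9 replicate 2 (0.000946), and failed the filter on low counts without Sox9 replicate 1, 3 or 4. In all it kept the call under 7 of 15 alternatives. With cyclic loess scaling, which takes out the trend of fold change with level, its log2 fold change was 0.86 with an adjusted p of 0.343.

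Ncan (neurocan), the abundant lectican of the developing brain, did not pass the test. It had 5229, 5600.3 and 3861 CPM in the controls and 4464, 6082, 4717 and 3684 CPM in those labelled Sox9. The highest and the lowest value both fell in the Sox9 group, and the control values lay between them. The log2 fold change was -0.05 ± 0.16 (edgeR's adjusted p = 0.847), and its sign changed with other scalings. Bcan (brevican), the lectican of the mature brain, was not tested, with 2, 6 and 3 counts in the controls and 3, 8, 9 and 3 in the others. As a share of all lectican mRNA per kilobase, Vcan made up 0.433, 0.282 and 0.256% in the controls and 1.83, 0.766, 0.703 and 1.14% in the Sox9-labelled libraries. Ncan made up 99.6 to 99.7% and 98.1 to 99.2%, so in every library nearly all lectican mRNA was that of Ncan.

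**Figure D3:**
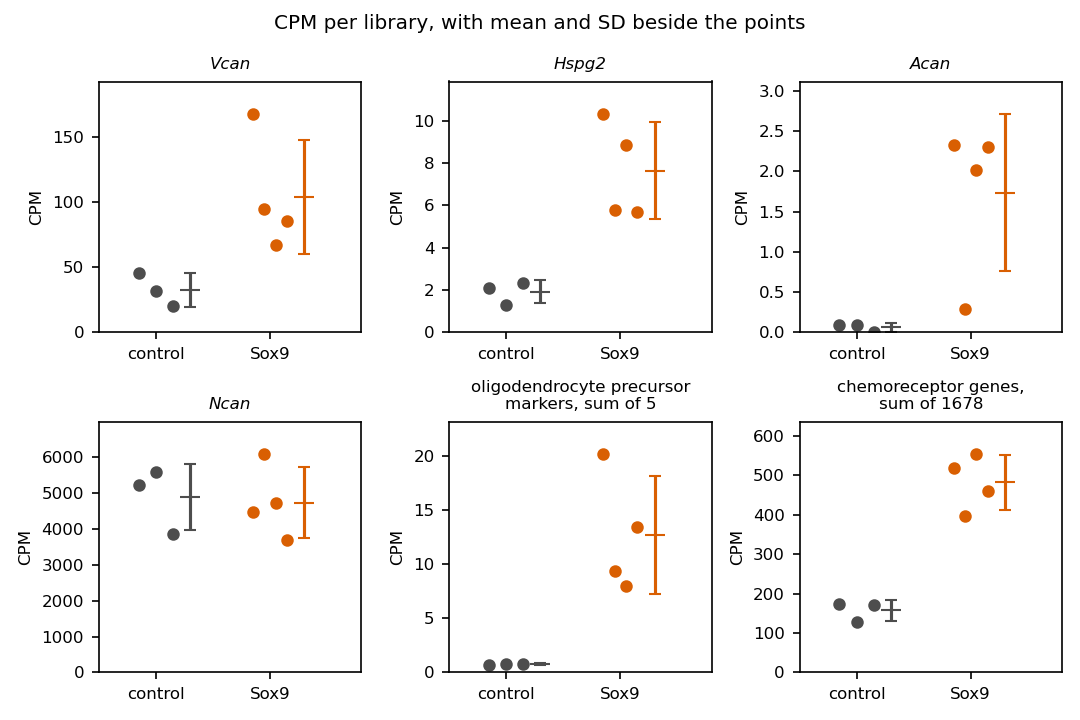
Each panel gives CPM on a linear axis from 0 for the 3 control libraries (grey) and the 4 libraries labelled Sox9 (orange), with the mean and SD beside the points, for Vcan, Hspg2, Acan and Ncan and for the summed counts of 5 markers of oligodendrocyte precursors and of 1678 chemoreceptor genes. The groups are separate in every panel but that of Ncan, in which they overlap.

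Among the basement membrane heparan sulfate proteoglycans, Hspg2 was higher and Agrn was not. Hspg2 (ENSMUSG00000028763, chromosome 4 from 137468769 to 137570630) encodes perlecan, a component of vascular and pial basement membranes that binds laminin and growth factors. It had 2.10, 1.30 and 2.34 CPM in the controls and 10.3, 5.76, 8.83 and 5.66 CPM in the Sox9-labelled libraries. Every value of the latter was well above the highest control. The means were 1.92 ± 0.543 CPM (n = 3) and 7.64 ± 2.30 CPM (n = 4), with a log2 fold change of 2.00 ± 0.36 and an adjusted p of 0.0016 from edgeR. The call held without any single library, and with cyclic loess scaling the adjusted p was 0.0108 (log2 fold change of 1.42). Agrn (agrin), which clusters receptors at the neuromuscular synapse and is also made in brain, had 98.3, 115 and 84.7 CPM in the controls and 97.8, 80.5, 85.5 and 106 CPM in the others. These values overlapped, and the log2 fold change was -0.11 ± 0.14 (adjusted p = 0.58).

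The rises of Vcan, Hspg2 and Acan coincided with higher counts of other genes that were low in the control libraries. The 5 markers of oligodendrocyte precursors, cells that themselves make chondroitin sulfate proteoglycans, summed to 0.669 to 0.814 CPM in the controls and 8.05 to 20.2 CPM in the Sox9-labelled libraries, all 4 that were tested were called higher (each passed the filter through Sox9-labelled libraries alone), and each of the 5 had a count in at least 1 control library. The 10 markers of mural and meningeal cells, which lie in or on basement membranes, summed to 8.60 to 10.1 CPM and 17.8 to 29.7 CPM, with 2 of 7 tested called higher and none at 0 in all libraries. The 7 markers of endothelial cells summed to 3.73 to 12.0 CPM and 13.2 to 29.8 CPM, with 1 of 5 tested called higher, and the 5 of choroid plexus to 1.05 to 1.56 CPM and 9.07 to 14.0 CPM, with 2 of 3, all 3 of which passed the filter through Sox9-labelled libraries alone. The 1678 chemoreceptor genes (receptors for odours, pheromones and tastes) serve as a reference for genes that cortex should not use, though only 750 of them had 0 counts in every control library. They summed to 128 to 175 CPM and 396 to 553 CPM, with 18 of 111 tested called higher. Of all protein-coding genes, 23.7% below an average log2 CPM of 2 and 9.96% at any level were called higher. Whether those 111 passed the filter through Sox9-labelled libraries alone was not checked. Markers of astrocytes (26.2 to 53.0 and 12.9 to 19.9 CPM), microglia (9.94 to 35.0 and 13.8 to 61.0 CPM) and erythroid cells (1.82 to 19.4 and 10.9 to 58.7 CPM) were present as well, the summed level of the first lower and those of the others overlapping. Of the astrocyte markers, Aldh1l1 was called lower (-1.86) and S100b higher (2.76), of 7 microglial markers C1qa was called higher, and no erythroid marker was called. S100b and C1qa, too, passed the filter through Sox9-labelled libraries alone. The part of these differences in the results on proteoglycans was not tested, and in such bulk samples fewer cells of a type and less RNA per cell cannot be told apart.

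The glypicans, heparan sulfate proteoglycans attached to the plasma membrane by a GPI anchor that modulate Wnt, Hedgehog, BMP and FGF signals, gave no call among 6 genes. Their log2 fold changes ran from -0.65 to 1.70 with a median of -0.27, and 5 of the 6 were below 0. Among all protein-coding genes tested, 45.9% lay above 0. By average log2 CPM this share was 83.6% below 2, 47.5% between 2 and 5 and 14.8% from 5 upwards, the class of Gpc1 and Gpc2. Gpc1, the most abundant glypican per kilobase of exon, had 85.4, 99.8 and 107 CPM in the controls and 71.1, 83.3, 65.6 and 68.8 CPM in the Sox9-labelled libraries. All of the latter were below all controls, with a log2 fold change of -0.43 ± 0.13 that did not pass the threshold in edgeR (adjusted p = 0.0221) but passed it in DESeq2 (0.00612). Opposite Gpc1 lies Ankmy1, whose exons cover 18.9% of its exonic bases on the other strand, and reads of both genes cannot be told apart without strand.

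Gpc2, a glypican of neurons and their axons, varied least, with 55.3, 51.6 and 54.2 CPM in the controls and 49.2, 56.1, 54.2 and 53.9 CPM in the others. The control values lay within the range of the others, with a log2 fold change of -0.01 ± 0.13 (adjusted p = 0.963) whose sign changed with other scalings. Of its exonic bases, 55.6% are shared with the overlapping gene Gm43720 on the same strand, so its count is uncertain. Gpc4 had 31.5, 15.3 and 17.2 CPM in the controls and 10.3, 16.2, 16.7 and 14.9 CPM in the others, and control replicate 1 alone stood well above the rest (adjusted p = 0.113). Gpc6 was below all controls in every library labelled Sox9 (8.60 to 12.2 CPM against 13.7 to 18.9 CPM, log2 fold change of -0.65 ± 0.22, adjusted p = 0.0346). Gpc5 had 0.174 to 1.34 CPM in the controls and 0.629 to 3.35 CPM in the others (1.70 ± 0.63, adjusted p = 0.0502). Gpc3, whose loss in humans causes an overgrowth syndrome, overlapped at 2.77 to 7.04 and 1.79 to 7.14 CPM. Radial glia markers were lower in the Sox9-labelled libraries (551 to 1071 and 263 to 403 CPM), and their part in the glypican values was not tested. The glypicans summed to 190.0 to 200.3 CPM in the controls and 151 to 172 CPM in the others. Within that sum per kilobase, the share of Gpc2 was 28.2 to 28.9% and 33.6 to 36.2%, without overlap, while that of Gpc1 overlapped between the groups.

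The syndecans, transmembrane heparan sulfate proteoglycans that act as co-receptors for growth factors and matrix, had log2 fold changes from -1.23 to -0.16 with a median of -0.68, and none of the 4 passed the test. Sdc3 was in the class with an average log2 CPM of 5 or more, where 14.8% of all genes lay above 0. The others were in that between 2 and 5, where 47.5% did. Sdc3, the syndecan of the nervous system and the most abundant per kilobase of exon here, had 44.0, 35.0 and 40.4 CPM in the controls and 28.0, 31.9, 38.2 and 26.0 CPM in those labelled Sox9. Replicate 3 of the latter lay within the control range and the others below it (-0.35 ± 0.17, adjusted p = 0.118). Sdc2 had 6.21, 9.47 and 7.22 CPM and 5.08, 3.21, 1.12 and 3.77 CPM, so that all control values were above all others.

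For Sdc2 the log2 fold change was -1.23 ± 0.39, with an adjusted p of 0.0281 from edgeR and of 0.00696 from DESeq2. Sdc4 had 4.78, 12.1 and 11.3 CPM in the controls and 5.08, 3.78, 3.47 and 6.71 CPM in the others. Control replicate 1 lay among the Sox9 values, and without it the log2 fold change of Sdc4 moved from -1.01 ± 0.35 (adjusted p = 0.0384) to -1.35 (0.00797) and was called lower. Sdc1 had 20.5, 7.56 and 5.29 CPM and 7.28, 10.2, 11.0 and 11.3 CPM, with the highest and the lowest value both in the control group (-0.16 ± 0.37, adjusted p = 0.769). Without control replicate 1 the log2 fold change of Sdc1 was 0.60, and its sign also changed under cyclic loess scaling and with deposited FPKM. The syndecans summed to 64.1 to 75.4 CPM in the controls and 45.5 to 53.8 CPM in the Sox9-labelled libraries, without overlap. Markers of radial glia moved beside them, from 551 to 1071 CPM in the control libraries to 263 to 403 CPM in the others (4 of 8 called lower), and their part in the syndecan values was not tested.

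**Figure D4:**
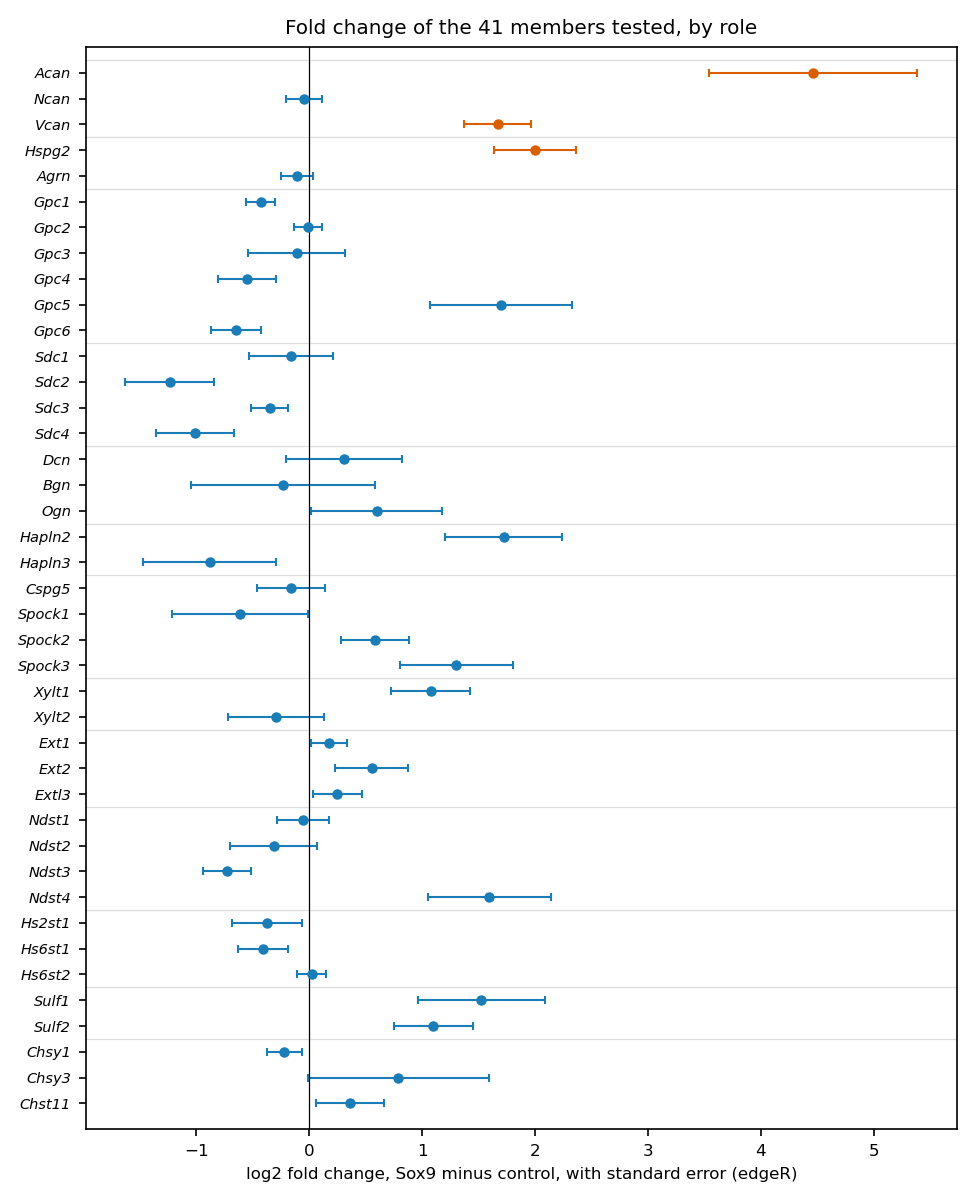
Points give the log2 fold change (libraries labelled Sox9 minus control) and bars the standard error from edgeR for the 41 members tested, ordered by role as in the plot of levels, with the 3 called higher in orange. The 4 syndecans lie below 0, the 2 endosulfatases above, and the bars are widest for genes with few counts such as Acan, Bgn and Chsy3.

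The small leucine-rich proteoglycans, which bind collagen fibrils in connective tissue, were low. Dcn (decorin) had 14, 6 and 15 counts in the controls and 11, 13, 8 and 10 counts in the others, Bgn (biglycan) had 0, 31 and 7 against 3, 15, 13 and 2, and Ogn (osteoglycin) had 3, 14 and 6 against 6, 7, 12 and 8. The groups overlapped for all 3, and none was called, with adjusted p-values of 0.458 to 0.855. Lum (lumican) had 2 counts over all controls and 17 over those labelled Sox9, 11 of them in replicate 1, for a ratio of rates of 8.56 (95% exact counting interval of 2.03 to 76.4). Fmod (fibromodulin) had 1 and 7 counts, a ratio of 7.05 whose interval of 0.906 to 318 includes 1. Such ratios, here, for Acan and below, were computed only for genes with at most 3 counts in every control library. They are thus conditioned on low controls, and an interval above 1 does not test a rise.

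The link proteins stabilize the bond between hyaluronan and lecticans. Hapln2, known from nodes of Ranvier, was the link protein with the smallest p. It had 6, 5 and 5 counts in the controls and 17, 10, 17 and 8 counts in the Sox9-labelled libraries, without overlap, for a log2 fold change of 1.72 ± 0.52 (adjusted p = 0.0211). Like Acan, it entered the test through Sox9-labelled libraries alone, so its p-value is conditioned on the filter. It was called without Sox9 replicate 2 (adjusted p of 0.00982) but not without control replicate 1 (0.052), 2 (0.0806) or 4 (0.0545). With cyclic loess scaling the log2 fold change was 0.03 and the adjusted p 0.967. Hapln3 had 21, 4 and 18 counts in the controls and 5, 11, 5 and 3 in the others (-0.88 ± 0.59, adjusted p = 0.268). Hapln1 had 1 count over all controls and 8 over the others (ratio of 8.06, interval of 1.08 to 358), and Hapln4 had 11 and 15 counts.

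The hyaluronan synthases were not tested, since Has1, Has2 and Has3 were all removed by the filter on low counts. Has2, the synthase required for heart cushion formation in the embryo, had 0, 0 and 1 counts in the controls and 4, 5, 1 and 11 counts in those labelled Sox9. In CPM every value of the latter was above every control, though by little in replicate 3 (0.112 against 0.102). Its ratio of rates, given because the controls were low, was 21.1 with a 95% exact counting interval of 3.40 to 875. Of its 21 counts, 11 came from replicate 4. Has1 had 6 counts in all controls and 16 in the others, 10 of them in replicate 1. Has3 had 18 and 19 counts. The highest level of any synthase in any library was 2.31 CPM (Has2, Sox9 replicate 4).

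Among neuroglycan C and the testicans, secreted or membrane-bound brain proteoglycans, none of 4 genes passed the test. Cspg5 (neuroglycan C) had 6.79, 6.26 and 6.82 CPM in the controls and 8.93, 4.82, 4.36 and 5.66 CPM in the others, so the Sox9 group spread around the narrow control range (-0.16 ± 0.30, adjusted p = 0.713). Spock2 (testican-2) had 5.93, 4.17 and 5.59 CPM against 6.59, 5.95, 11.4 and 7.34 CPM. These did not overlap, but only by a narrow gap, and the adjusted p was 0.15 (0.58 ± 0.30). Spock3 did not overlap either (0.407 to 1.62 CPM against 1.68 to 3.43 CPM, 1.30 ± 0.50, adjusted p = 0.0578), and Spock1 did (0.348 to 2.49 against 0.661 to 1.68 CPM).

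The xylosyltransferases start all heparan and chondroitin sulfate chains. Xylt1 had 2.58, 1.48 and 3.26 CPM in the controls and 5.08, 5.01, 5.03 and 5.45 CPM in those labelled Sox9. The latter were close together and all above the controls, with a log2 fold change of 1.08 ± 0.35 that did not pass the threshold (adjusted p = 0.0303). Xylt2 had 1.74 to 3.15 CPM in the controls and 1.23 to 2.33 CPM in the others (-0.29 ± 0.42, adjusted p = 0.632). Per kilobase, Xylt1 made up 36.9, 26.0 and 29.9% of xylosyltransferase mRNA in the controls and 47.3, 54.8, 62.8 and 51.7% in the Sox9-labelled libraries, so the shares did not overlap.

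The heparan sulfate polymerases Ext1 and Ext2, which form a complex in the Golgi, and Extl3, which adds the first N-acetylglucosamine of a heparan sulfate chain, all had log2 fold changes above 0, from 0.17 to 0.55, and none of the 3 passed the test. Among all protein-coding genes tested, 45.9% lay above 0. Ext1 had 25.7, 33.8 and 30.6 CPM in the controls and 32.1, 31.5, 34.2 and 38.2 CPM in the others (0.17 ± 0.16, adjusted p = 0.423). Extl3 had 52.5, 29.1 and 39.7 CPM and 31.9, 52.2, 56.0 and 52.0 CPM. Control replicate 1 and Sox9 replicate 1 each lay among the values of the other group (0.25 ± 0.21, adjusted p = 0.395). Ext2 had 2.78 to 5.49 CPM and 5.24 to 8.72 CPM (0.55 ± 0.33, adjusted p = 0.205).

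The N-deacetylase/N-sulfotransferases make the first modification of the chain, on which the later ones depend. Ndst3, the form found mainly in brain and the most abundant of the 4 here per kilobase of exon, had 47.4, 73.3 and 39.7 CPM in the controls and 23.5, 34.7, 32.0 and 39.2 CPM in those labelled Sox9. The highest of the latter was just below the lowest control, and the log2 fold change of -0.73 ± 0.21 passed the threshold in DESeq2 (adjusted p = 0.00378) but not in edgeR (0.0179). Ndst4, at a much lower level, was not called either, with 0.287 to 1.22 CPM in the controls and 1.79 to 1.98 CPM in the others (1.59 ± 0.55, edgeR's adjusted p = 0.0374). Ndst1 (12.9 to 18.2 and 10.7 to 19.7 CPM) and Ndst2 (3.35 to 6 and 1.90 to 5.66 CPM) overlapped. The 4 genes summed to 62.8 to 90.6 CPM in the controls and 45.1 to 57.5 CPM in the others, and the share of Ndst3 within them per kilobase overlapped (54.6 to 75.0% and 45.1 to 59.5%). Radial glia markers were lower in the same libraries (551 to 1071 and 263 to 403 CPM), and their part in this sum was not tested.

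Of the O-sulfotransferases, Hs6st2 was the most abundant enzyme of the whole set per kilobase of exon. This 6-O-sulfotransferase had 264, 233 and 264 CPM in the controls and 214, 279, 296 and 241 CPM in those labelled Sox9. The control values lay within the range of the others, with a log2 fold change of 0.02 ± 0.13 (adjusted p = 0.913) whose sign changed with other scalings. Hs6st1 had 14.3 to 15.8 CPM in the controls and 8.38 to 14.2 CPM in the others, without overlap (-0.41 ± 0.22, adjusted p = 0.168). Hs6st3, not tested, had 1, 0 and 2 counts against 6, 10, 16 and 3 counts, a ratio of rates of 11.7 (95% exact counting interval of 3.70 to 59.7). Hs2st1, the only 2-O-sulfotransferase for heparan sulfate, had 5.56 to 11.5 CPM and 4.25 to 8.69 CPM (-0.37 ± 0.31, adjusted p = 0.383). Among the 6-O-sulfotransferases the share of Hs6st2 per kilobase was 91.9 to 92.5% in the controls and 91.3 to 93.5% in the others, which overlapped. The share of Hs6st1 was 7.39 to 7.92% and 5.15 to 6.16%, and that of Hs6st3 was 0 to 0.324% and 1.11 to 2.52%, both without overlap.

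The endosulfatases Sulf1 and Sulf2 remove 6-O-sulfates from finished chains outside the cell. Sulf2 had 6.79, 2.95 and 3.36 CPM in the controls and 11.1, 7.28, 12.5 and 6.29 CPM in those labelled Sox9. Control replicate 1 lay just above the lowest Sox9 value, and the log2 fold change of 1.10 ± 0.35 did not pass the threshold (adjusted p = 0.028). Without control replicate 1 it was 1.55 and Sulf2 was called (0.00844). Sulf1 had 0.191 to 1.65 CPM and 1.70 to 4.02 CPM, without overlap (1.52 ± 0.56, adjusted p = 0.0502). Together they had 4.48 to 6.98 CPM in the controls and 8.81 to 16.5 CPM in the others, without overlap.

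The chondroitin sulfate enzymes Chsy1 and Chsy3, which build the repeating disaccharide, and Chst11, which sulfates it at the 4 position, gave no call. Chsy1 had 40.3, 36.3 and 34.9 CPM in the controls and 27.5, 37.2, 32.2 and 30.4 CPM in the others. Replicate 2 of the Sox9 group lay within the control range and the other 3 below it (-0.22 ± 0.15, adjusted p = 0.29). Chst11 had 4.58 to 8.69 CPM and 6.08 to 11.9 CPM (0.36 ± 0.30, adjusted p = 0.38), and Chsy3 had 15 counts in all controls, 13 of them in replicate 1, and 25 in the others.

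Several of these genes lie next to each other. Each of the 4 lecticans has a link protein gene beside it with no protein-coding gene between them on GRCm38. The distance is 2 bases for Acan and Hapln3, whose ends face each other, 2222 bases for Ncan and Hapln4, 21.5 kb for Bcan and Hapln2, and 43.7 kb for Vcan and Hapln1. In the first pair, Acan was called higher while Hapln3 had a log2 fold change of -0.88, and beside the abundant Ncan the counts of Hapln4 were 0, 7 and 4 in the controls and 4, 4, 5 and 2 in the others. Gpc3 and Gpc4 on chromosome X and Dcn and Lum on chromosome 10 are such neighbours too, as are Gpc5 and Gpc6, of which Gpc5 had 1.70 and Gpc6 -0.65. No other annotated gene shares exonic bases with Vcan, Hspg2 or Acan.

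The other genes of the pathway, 93 genes chosen by function, had a median log2 fold change of 0.05 over the 78 tested, with 13 called higher and 5 lower, where 9.96% and 3.88% of all protein-coding genes were called. Of the 13, 7 passed the filter through Sox9-labelled libraries alone. The calls were 3 higher among 6 hyaluronan receptors and binding proteins, 4 higher and 1 lower among 12 other core proteins, 3 higher and 2 lower among 12 proteoglycan receptors and lectican ligands, 2 higher among 14 linkage and precursor enzymes, and 1 higher among 17 degradation enzymes. Other heparan sulfate enzymes gave 1 lower of 7 tested and other chondroitin and dermatan sulfate enzymes 1 lower of 10. The 7 that passed through Sox9-labelled libraries alone included every receptor and lectican ligand called higher. They also included every other core protein called higher except Tgfbr3. Such genes could hardly be called lower. The 5 genes with the smallest p in each direction are described with Cd44, Hmmr, Ptprz1, Tnc and Tnr, which were named whatever their values.

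Cemip and Cd44, which degrade or bind hyaluronan, were called higher, as was Stab1, a gene listed with the hyaluronan receptors and binding proteins. Cemip, a hyaluronan-degrading protein, had 4.30, 4.00 and 4.17 CPM in the controls and 15.2, 11.7, 18.1 and 15.7 CPM in those labelled Sox9 (1.87 ± 0.24, adjusted p = 0.000223). Stab1 (stabilin-1), a scavenger receptor of macrophages and sinusoidal endothelium, had 0.573, 0.869 and 0.712 CPM and 6.87, 5.29, 7.94 and 10.5 CPM (3.37 ± 0.40, adjusted p = 0.000125). Cd44, the main hyaluronan receptor of the cell surface, had 1.53, 1.82 and 3.97 CPM and 7.14, 5.67, 11.5 and 7.76 CPM (1.72 ± 0.39, adjusted p = 0.0053). For all 3, the groups did not overlap, and Stab1 passed the filter through Sox9-labelled libraries alone. Cd44 lost its call under 8 of 19 alternatives, among them the fits without Sox9 replicate 3 (adjusted p of 0.0219), control replicate 1 (0.0195) or control replicate 2 (0.0235). Hmmr, which also binds hyaluronan but acts mainly at the mitotic spindle, had 17.1, 35.9 and 18.8 CPM and 15.9, 12.6, 14.5 and 12.2 CPM (-0.79 ± 0.25, adjusted p = 0.025).

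Of the remaining called genes, Slc26a2, the sulfate transporter that feeds glycosaminoglycan sulfation in cartilage, had 3.74 to 6.71 CPM in the controls and 13.6 to 25.1 CPM in the others (1.98 ± 0.28, adjusted p = 0.000323). Tgfbr3 (betaglycan) had 0.174 to 1.12 CPM and 2.31 to 7.49 CPM (2.84 ± 0.58, adjusted p = 0.00313), and Podnl1, a small leucine-rich protein, had 1 count in each control library and 21, 11, 28 and 2 in the others (adjusted p = 0.0025), so that Sox9-labelled libraries alone carried it through the filter. Tgfbr3 lost its call without Sox9 replicate 3 (adjusted p of 0.012) or control replicate 2 (0.0113), and its log2 fold change was 3.57 without control replicate 4. Podnl1 lost its call without control replicate 2 (0.0113) and failed the filter without Sox9 replicate 1, 2 or 3. Lower were Tnc (tenascin-C), a matrix glycoprotein of radial glia that binds lecticans, with 41.7, 129 and 97.0 CPM against 11.4, 11.2, 14.4 and 16.6 CPM (-2.75 ± 0.29, adjusted p = 5.07e-05), and Lrp4, the agrin receptor, with 42.9 to 84.6 CPM against 21.0 to 27.4 CPM (-1.47 ± 0.20, adjusted p = 0.000281). Hs3st1, a 3-O-sulfotransferase (80.3 to 112 CPM against 24.9 to 58.1 CPM, -1.25 ± 0.22, adjusted p = 0.00146), Chst15, a sulfotransferase of chondroitin sulfate (86.8 to 114 CPM against 61.0 to 74.3 CPM, -0.54 ± 0.13, adjusted p = 0.0085), and Sparcl1 (41.1 to 63.8 CPM against 25.8 to 33.8 CPM, -0.70 ± 0.18, adjusted p = 0.00917) were called lower as well. The calls of Chst15 and Sparcl1 were both lost whichever of the 7 libraries was left out, with adjusted p of 0.0133 to 0.0397 for Chst15 and of 0.0101 to 0.052 for Sparcl1, and were kept under 4 of 19 and 4 of 20 alternatives. The brain proteoglycan Ptprz1 overlapped between the groups (169 to 250.4 CPM and 136 to 195 CPM, adjusted p = 0.081), as did Tnr, a lectican ligand (5.47 to 12.1 and 5.92 to 11.3 CPM, adjusted p = 0.882).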

How the data were processed

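RNA-Seq libraries of High RFP cells (3 control, 4 Sox9) were used as the authors deposited them. Per the labels, cDNA was primed with poly-dT and amplified by PCR. A table the authors deposited holds raw counts for 38124 Ensembl genes, made from reads aligned to mm10 (GRCm38); the submitters' processing notes list STAR 2.5.2b and bcl2fastq 2.17.1.14. The counting program and its use of strand are not given in the sources used here. The authors also deposited FPKM values (27806 genes), used only in alternatives. For 18 of 21 members checked, the length that links counts to FPKM was within 10% of the gene's whole span, and for 0 within 10% of its exons, with a median ratio of span to exons of 7.42, so levels per kilobase were recomputed here with exonic lengths. Neither file held columns of the authors' own comparisons.

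Symbols, exons and coordinates came from GENCODE M21, which held 36345 of the identifiers. Counts were TMM-scaled, filtered with filterByExpr and tested two-sided with edgeR 4.0.16 (quasi-likelihood, no covariate) in R 4.3.3 on the whole table, with Benjamini-Hochberg adjustment over the 16522 genes tested. The study's cutoff of 0.01 was kept. A standard error is the absolute log2 fold change over the square root of F. Ratios of low counts were computed only for genes with at most 3 counts in every control library. Their 95% exact intervals cover counting error only, since reads carry no molecular identifiers. No libraries were alike within sampling noise (chi-square per degree of freedom of 7.00 to 18.9).

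The members and lists were chosen with earlier results of these data known. Members called, the 8 most abundant others per kilobase of exon, and members that define a role with no call are given in every library; of the other pathway genes, at most the 5 with the smallest p per direction are named, besides Cd44, Hmmr, Ptprz1, Tnc and Tnr. Tmem2 was matched through the RefSeq synonym of Cemip2. Markers came from a list of 10 cell types, and chemoreceptors by symbol.

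Replicate numbers came from the titles, where the controls are 1, 2 and 4; the descriptions number them 1, 2 and 3. The alternatives were DESeq2 1.42.0, its size factors in edgeR, cyclic loess scaling with limma 3.58.1, restriction to protein-coding genes, no filter, a mean FPKM of 1 or more, 10 counts in every library, glmTreat against 1.5-fold, an adjusted p under 0.05, log2(FPKM + 0.01 or 0.1) in limma, a replicate block by titles or descriptions, and each library left out in turn. Summaries and plots used matplotlib 3.10.9, pandas 2.3.3, scipy 1.17.1 and numpy 2.4.6 under Python 3.11.15.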

Additional observations from a re-analysis of the deposited data

Results flagged for a closer look

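Values in the Sox9 group of 4 libraries were compared with each other by Dixon's test for 71 genes (the 50 genes and 21 of the other pathway genes), and 4 values were far from those of the other 3 libraries. Acan had 0.2835 CPM in Sox9 replicate 2, beside 2.01 to 2.34 CPM in the rest of the group. Has1 had 1.373 CPM in Sox9 replicate 1, beside 0.210 to 0.284 CPM. Xylt1 had 5.452 CPM in Sox9 replicate 4, beside 5.008 to 5.082 CPM, a gap that stands out because these values lie close together. Extl3 had 31.87 CPM in Sox9 replicate 1, beside 52.0 to 56.0 CPM. Chance marks about 1 in 20 groups.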

How the results depend on the processing

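Of the 3 genes called, Vcan kept its call under 18 of 19 alternatives (with log2(FPKM + 0.1) the adjusted p was 0.0119), Hspg2 under 17 of 19 (0.0108 with cyclic loess scaling and 0.0118 with the replicate block by titles) and Acan, with log2 fold changes of 0.36 to 4.87, under 7 of 15. The members called higher, 3 in the report, were 1 with cyclic loess scaling, 1 with log2(FPKM + 0.1), 0 with a mean FPKM of at least 1 (5 members left to test), 6 without a filter (with Has2, Hs6st3 and Sulf2 added), 7 at an adjusted p under 0.05, and 2 to 4 with a library left out. The members called lower, 0 in the report, were 3 with DESeq2, 4 without a filter, 5 at an adjusted p under 0.05, and 0 to 1 with a library left out (Sdc4 without control replicate 1). Of the other pathway genes, 13 called higher became 5 with 10 counts in every library, 3 with cyclic loess scaling, 6 with glmTreat, 6 and 4 with log2(FPKM + 0.01) and log2(FPKM + 0.1), 0 with a mean FPKM of at least 1, and 4 to 11 with a library left out (5 without control replicate 1, 4 without control replicate 2, 5 without Sox9 replicate 1 and 4 without Sox9 replicate 3). The 5 called lower became 3 with 10 counts in every library, with cyclic loess scaling, with protein-coding genes only and without any single library (Chst15 and Sparcl1 lost), 2 with glmTreat, 1 with either FPKM fit, 0 with a mean FPKM of at least 1, 8 without a filter and 10 at an adjusted p under 0.05. Sox9 had -0.78 without a filter, where it was called lower, -0.68 at an adjusted p under 0.05, and -0.99 to -0.37 with a library left out, called lower without control replicate 1. The cause of these differences was not tested, other than that fewer genes or libraries entered some fits. Log2(FPKM + 0.01) and log2(FPKM + 0.1) moved the median of all genes to 0.16 and 0.11.

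Deviations of libraries with the same number from their group means correlated at -0.07, 0.13 and -0.02 by titles and at -0.07, 0.13 and 0.01 by descriptions, so the numbers do not pair the libraries. With a replicate block by titles 1 member was called higher, and 3 other pathway genes higher and 3 lower; with the replicate block by descriptions 2 members, and 8 and 3 other pathway genes.

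The sign of the log2 fold change turned for the genes below, none of them called in the report. With 10 counts in every library it turned for Ncan (0.092), Agrn (0.028), Gpc2 (0.13), Gpc3 (0.014) and Ndst1 (0.089). With cyclic loess scaling it turned for Ncan (0.23), Agrn (0.13), Gpc2 (0.21), Sdc1 (0.012), Dcn (-0.88), Ogn (-0.83) and Chsy3 (-0.77). With log2(FPKM + 0.01) it turned for Ncan (0.17), Agrn (0.12), Gpc2 (0.22), Gpc3 (0.10), Sdc1 (0.28), Bgn (0.63), Cspg5 (0.016) and Ndst1 (0.14), and with log2(FPKM + 0.1) for Ncan (0.17), Agrn (0.12), Gpc2 (0.21), Gpc3 (0.024), Sdc1 (0.21), Bgn (0.073), Cspg5 (0.022) and Ndst1 (0.12). With a mean FPKM of at least 1 it turned for Ncan (0.15), Agrn (0.090) and Gpc2 (0.19), and with protein-coding genes only for Gpc2 (0.029). Hs6st2 turned with DESeq2's size factors (-0.0026), with DESeq2 (-0.058), without a filter (-0.063) and with the replicate block by titles (-0.059), and Tnr with DESeq2 (-0.0062) and without a filter (-0.013). The block by titles turned Gpc3 (0.23), and that by descriptions Ncan (0.060), Bgn (0.36) and Ndst1 (0.064). With a library left out, the range spanned 0 for Ncan (-0.17 to 0.11), Agrn (-0.20 to 0.016), Gpc2 (-0.032 to 0.053), Gpc3 (-0.42 to 0.21), Sdc1 (-0.47 to 0.60), Dcn (-0.043 to 0.60), Bgn (-0.82 to 1.45), Xylt2 (-0.45 to 0.047), Ndst1 (-0.19 to 0.13), Hs6st2 (-0.029 to 0.13) and Tnr (-0.13 to 0.50).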
